A study of Mus musculus with 6 samples.

Results

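A set of 10 genes of selective autophagy was followed in bulk RNA-seq of newborn mouse interscapular brown fat: the mitophagy receptors Bnip3, Bnip3l and Fundc1, the ATG8 family genes Map1lc3a, Map1lc3b, Gabarap, Gabarapl1 and Gabarapl2, the cargo adaptor Sqstm1 and the kinase Ulk1. All 10 were found by symbol among the 19241 genes of the deposited table. The genes were chosen by function, in view of KO and WT values of these same libraries that already showed Bnip3, Gabarapl1 and Bnip3l higher in KO, so the KO minus WT difference of the 10 genes is given as a description, with no test. The study compared 3 WT libraries, labelled Fstl1-floxed, with 3 libraries labelled Myf5-Fstl1 KO, in which Fstl1, the gene of a secreted follistatin-like glycoprotein, was deleted in the Myf5 lineage. RNA came from the whole depot of newborn animals in both groups, so cells outside the Myf5 lineage, in which the gene was not targeted, contributed to the KO libraries too. The labels name no strain, sex or exact age, and do not say whether each library is 1 animal, so the spread between libraries may be partly technical. In whole tissue, fewer cells of a type and less RNA per cell cannot be told apart.

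Autophagy encloses cytoplasm in a double membrane and delivers it to lysosomes. The ULK1 kinase complex starts the process, and small ubiquitin-like ATG8 proteins are attached to a lipid of the growing membrane, where they hold cargo receptors by short interaction motifs. BNIP3, BNIP3L (also called NIX) and FUNDC1 sit in the outer mitochondrial membrane and bind ATG8 proteins directly, which marks mitochondria for removal, while SQSTM1 (p62) links ubiquitin-tagged cargo to the same proteins. Brown adipocytes are packed with mitochondria, and mitophagy is known there for lowering mitochondrial number when thermogenic demand falls. Messenger RNA levels were measured here, not protein, lipidation or mitochondrial turnover.

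The labels were checked first. Fstl1 lay between 54.4 and 130.04 FPKM (a level that is divided by transcript length and by the sequenced fragments of the library) in WT and between 7.93 and 13.1 FPKM in KO. Ucp1, the brown fat uncoupling protein, measured 4366, 6124 and 6255 FPKM in WT, against 2902, 1695 and 3592 in KO. Every KO library carried the Y-linked Ddx3y (59.5 to 60.8 FPKM, against at most 0.23 in WT), and every WT library carried Xist (44.8 to 85.5 FPKM, against at most 0.92 in KO). Sex therefore coincided with genotype, and the effects of the 2 cannot be told apart in any value below. The steps between low FPKM values pointed to 13900000 to 15000000 reads per library, so that 3 reads over 1 kb of transcript equal 0.199 to 0.216 FPKM. The 10 genes lay between 6.51 and 1085 FPKM, far above that level.

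For 5 of the 10 genes the level was higher in every KO library than in any WT library: Bnip3, Bnip3l, Gabarapl1, Sqstm1 and Ulk1. The other 5, Fundc1, Map1lc3a, Map1lc3b, Gabarap and Gabarapl2, overlapped between the groups. The separated genes thus came from 4 different roles (receptor, ATG8 protein, adaptor and kinase), and each of the receptor and ATG8 groups also held genes that overlapped. The groups did not overlap with KO higher in 13.6% of the 13331 genes tested, and with KO lower in 11.4%. None of the 10 was called in limma (Benjamini-Hochberg adjusted p under 0.05 over all genes tested), against 295 genes or 2.21% of those tested, and 6 had an unadjusted p under 0.05, against 19.2%. Their median log2 difference was 0.64, from −0.22 to 1.72, where the median of all tested genes was 0.01. Because the set was chosen with this contrast in view, nothing is read from these counts.

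**Figure D1:**
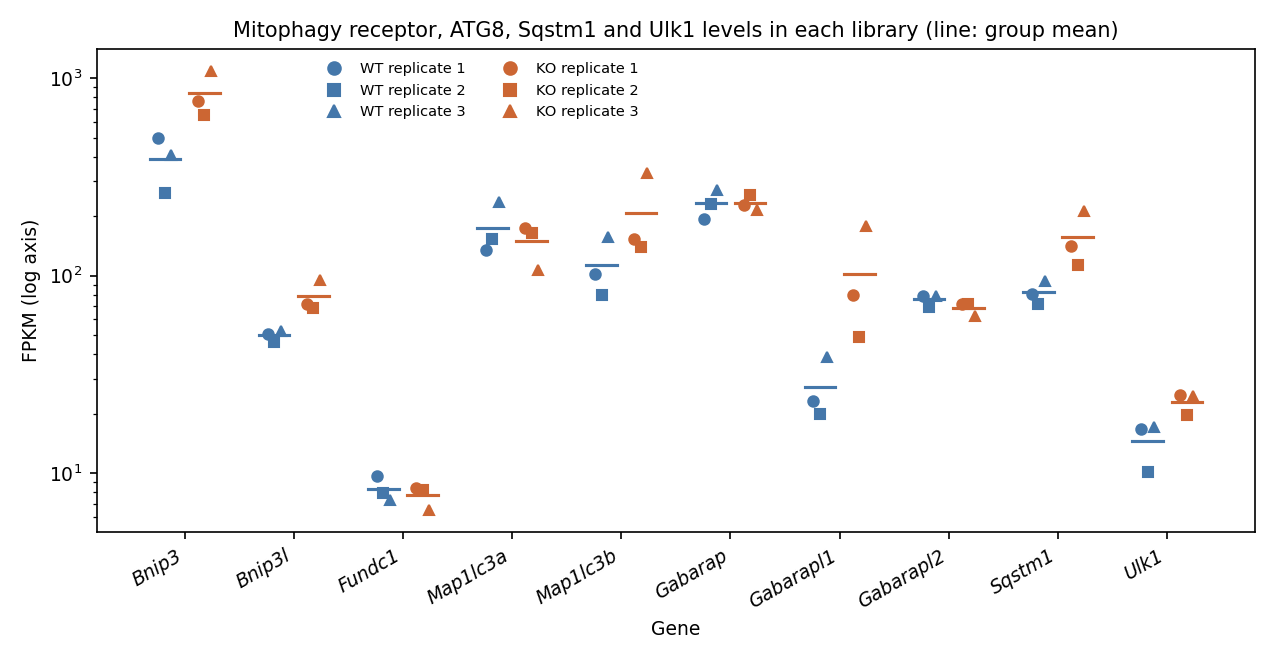
FPKM of the 10 genes (log axis) in each of the 6 libraries, WT in blue and KO in orange, with a line at each group mean. Bnip3, Bnip3l, Gabarapl1, Sqstm1 and Ulk1 show no overlap between the groups, and the triangle of KO replicate 3 stands highest for Bnip3, Bnip3l, Map1lc3b, Gabarapl1 and Sqstm1.

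Among the receptors, Bnip3 (Entrez gene 12176, chromosome 7, 138890836 to 138909506 in GRCm38) was by far the most abundant. The WT libraries, in the order of replicates 1 to 3 used throughout, measured 499, 263 and 407 FPKM, against 771, 654 and 1085 FPKM for the KO libraries. All KO values exceeded the highest WT value, the closest by 1.31 times, and WT replicate 2 was the lowest library. The means were 390 ± 119 and 837 ± 223 FPKM (SD, n = 3 each), a ratio of 2.15. The difference was 1.12 on the log2(FPKM + 1) scale, with a standard error of 0.26. In WT the mean of Bnip3 was above that of 98.2% of the tested genes.

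Bnip3l (12177, chromosome 14, 66985238 to 67008877), the close relative of Bnip3 that clears mitochondria from maturing red cells, measured 50.7, 46.1 and 52.6 FPKM in WT, against 71.8, 68.4 and 95.0 in KO. The WT libraries lay close together and all KO libraries lay above them. The means were 49.8 ± 3.34 and 78.4 ± 14.5 FPKM, a log2 difference of 0.63 with a standard error of 0.16. Fundc1 (72018, X chromosome, 17519967 to 17572329), whose product acts as a receptor in hypoxia, measured 9.68, 7.92 and 7.33 FPKM in WT, against 8.43, 8.21 and 6.51 in KO. The 2 ranges overlapped, with means of 8.31 ± 1.22 and 7.72 ± 1.05 FPKM and a log2 difference of −0.09 with a standard error of 0.16. Fundc1 was thus the scarcest of the 10 genes in both groups.

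The balance between receptors differed between libraries. Bnip3 was 33.2 to 55.5 times the level of Fundc1 in WT and 79.7 to 167 times in KO, without overlap. Bnip3l was 5.23 to 7.17 times the level of Fundc1 in WT and 8.33 to 14.6 times in KO, also without overlap. Between Bnip3 and Bnip3l the ratio overlapped, at 5.70 to 9.86 in WT and 9.56 to 11.4 in KO. FPKM is scaled by transcript length, so these ratios compare levels between genes within a library.

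In the ATG8 family, Gabarapl1 (57436, chromosome 6, 129533192 to 129542331), a member of the GABARAP branch, had the largest ratio of group means of the 10 genes. The WT libraries measured 23.1, 20.02 and 38.6 FPKM, against 79.4, 48.9 and 179 for KO. The highest WT library and the lowest KO library were 1.27 times apart, less than for Bnip3 (1.31) and Bnip3l (1.30), and KO replicate 3 was 2.79 times the mean of the other 2 KO libraries. The means were 27.2 ± 9.93 and 102 ± 67.8 FPKM, a ratio of 3.76, and the log2 difference was 1.72 with a standard error of 0.42. Without KO replicate 3 the ratio of means was 2.35 and the log2 difference 1.22.

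Map1lc3b (67443, chromosome 8, 121590438 to 121598760), the LC3B gene that is most used as a marker of autophagosomes, measured 102, 79.8 and 156 FPKM in WT, against 153, 140 and 331 in KO. The groups overlapped, since WT replicate 3 lay above KO replicates 1 and 2. Its log2 difference of 0.82 (standard error 0.35) dropped to 0.42 without KO replicate 3, which was 2.27 times the mean of the other 2 KO libraries. Map1lc3a (66734, chromosome 2, 155276364 to 155278073), its LC3A paralogue, measured 134, 153 and 235 FPKM in WT, against 174, 165 and 107 in KO. Here KO replicate 3 was the lowest of all 6 libraries, and the log2 difference was −0.22 with a standard error of 0.25.

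The remaining GABARAP genes varied little. Gabarap (56486, chromosome 11, 69991370 to 69994949), the founding member of its branch, measured 193, 230.4 and 272 FPKM in WT, against 227, 255 and 216 in KO, with means of 232 ± 39.8 and 233 ± 19.8 FPKM. Gabarapl2 (93739, chromosome 8, 111940703 to 111952915), also called GATE-16, measured 79.3, 69.2 and 79.2 FPKM in WT, against 71.9, 72.2 and 62.6 in KO. Both genes overlapped between the groups, with log2 differences of 0.02 (standard error 0.16) and −0.14 (standard error 0.14). Their highest and lowest libraries were 1.41 and 1.27 times apart, against 8.92 times for Gabarapl1.

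The make-up of the ATG8 transcripts differed between the groups for some genes. Gabarapl1 made up 4.35%, 3.63% and 4.94% of the summed ATG8 FPKM in WT and 11.2%, 7.19% and 19.9% in KO, a mean share of 4.30% ± 0.657 against 12.8% ± 6.52 (SD, n = 3). The share of Map1lc3b was 14.5% to 20.0% in WT and 20.5% to 37.0% in KO, and that of Map1lc3a was 25.3% to 30.1% in WT and 12.0% to 24.7% in KO. None of these 3 shares overlapped between the groups, although the levels of Map1lc3b and Map1lc3a did. The gap was narrow for Map1lc3b (20.0% against 20.5%) and for Map1lc3a (25.3% against 24.7%). Shares of a sum are tied, so a higher level of 1 gene lowers the shares of the others, and the 3 are not separate results. Gabarap held the largest mean share in both groups, 37.6% in WT and 31.3% in KO, with overlap. The summed ATG8 level itself overlapped, at 532 to 781 FPKM in WT and 680 to 895 FPKM in KO.

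Within the LC3 branch the order of the paralogues turned in 1 library. Map1lc3b was 0.522 to 0.761 times the level of Map1lc3a in WT and 0.876, 0.847 and 3.09 times in KO replicates 1, 2 and 3, so it exceeded Map1lc3a only in KO replicate 3. The 2 LC3 genes together took 42.1% to 50.1% of the ATG8 sum in WT and 44.7% to 48.9% in KO. The share of the LC3 branch as a whole thus overlapped between the groups. Without KO replicate 3 the difference in share between the groups was 3.18 percentage points for Map1lc3b, −3.20 for Map1lc3a and 4.91 for Gabarapl1, against 8.47, −7.38 and 8.49 with all libraries.

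**Figure D2:**
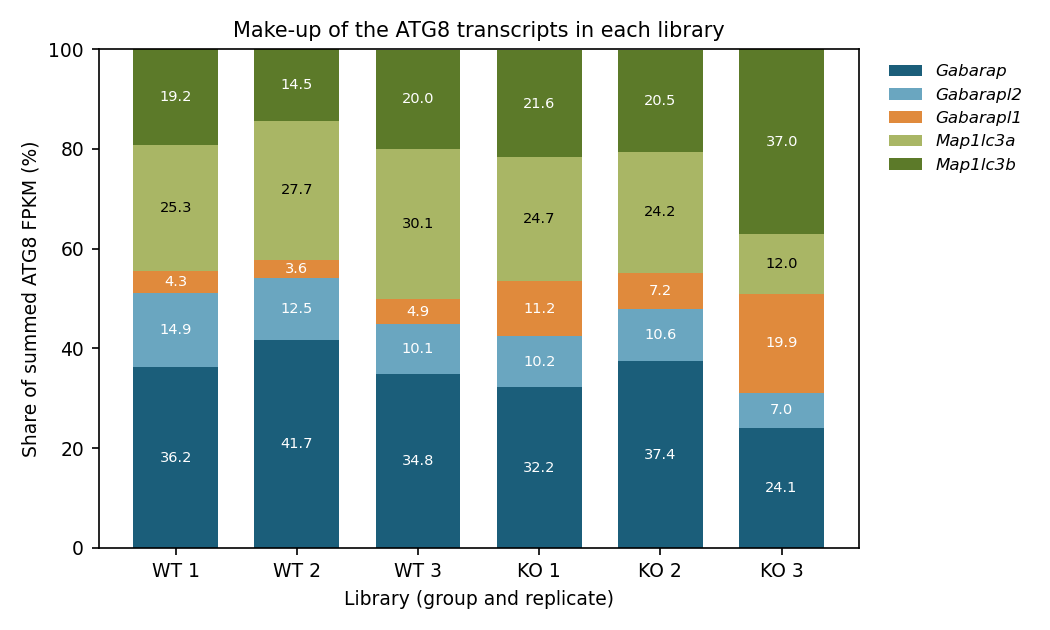
Share of each ATG8 gene in the summed ATG8 FPKM of a library, in percent, for the 3 WT and 3 KO libraries. The Gabarapl1 band is 3.63% to 4.94% in WT and 7.19% to 19.9% in KO, and KO replicate 3 shows the widest Map1lc3b band (37.0%) and the narrowest Map1lc3a band (12.0%).

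Sqstm1 (18412, chromosome 11, 50200152 to 50210820) measured 81.1, 71.6 and 94.1 FPKM in WT, against 142, 113 and 212 in KO. The groups did not overlap, and KO replicate 3 was again highest. The means were 82.2 ± 11.3 and 156 ± 51.0 FPKM, with a log2 difference of 0.87 and a standard error of 0.23. Ulk1 (22241, chromosome 5, 110784489 to 110810120), the kinase that starts autophagy, measured 16.7, 10.1 and 17.2 FPKM in WT, against 24.8, 19.8 and 24.5 in KO, also without overlap. Its means were 14.6 ± 3.95 and 23.0 ± 2.83 FPKM, with a log2 difference of 0.65 and a standard error of 0.21. KO replicate 3 did not stand apart for Ulk1, at 1.10 times the mean of the other 2 KO libraries, against 1.67 times for Sqstm1.

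Ordered by mean level in WT, the genes ran from Bnip3 (390 FPKM) through Gabarap (232), Map1lc3a (174), Map1lc3b (113), Sqstm1 (82.2), Gabarapl2 (75.9), Bnip3l (49.8), Gabarapl1 (27.2) and Ulk1 (14.6) to Fundc1 (8.31). Neighbours from Bnip3 down to Gabarapl2 overlapped in their ranges over the 3 WT libraries, and those from Gabarapl2 down to Fundc1 did not. In KO, Bnip3 (837 FPKM) stood clear of Gabarap (233), while each neighbour from Gabarap down to Gabarapl2 overlapped with the next. Map1lc3b ranked 3 and Sqstm1 4 in KO, both above Map1lc3a, and Gabarapl1 ranked 6, above Bnip3l and Gabarapl2. These changes of rank rested on KO replicate 3: without it the KO means of Map1lc3a (170 FPKM), Map1lc3b (146), Sqstm1 (127), Gabarapl2 (72.0), Bnip3l (70.1) and Gabarapl1 (64.1) stood in the WT order. Ulk1 and Fundc1 held ranks 9 and 10 in both groups and overlapped with no neighbour.

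The differences kept their sign for 7 of the 10 genes whichever library was left out. Gabarapl1 ran from 1.22 to 2.14 on the log2 scale, Bnip3 from 0.86 to 1.32, Sqstm1 from 0.63 to 1.08, Bnip3l from 0.49 to 0.72 and Ulk1 from 0.42 to 0.77. KO replicate 3 gave the low end for Gabarapl1, Sqstm1 and Bnip3l, and WT replicate 2 gave it for Bnip3 and Ulk1. Fundc1 (−0.17 to 0.01), Map1lc3a (−0.38 to 0.02) and Gabarap (−0.11 to 0.14) changed sign.

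**Figure D3:**
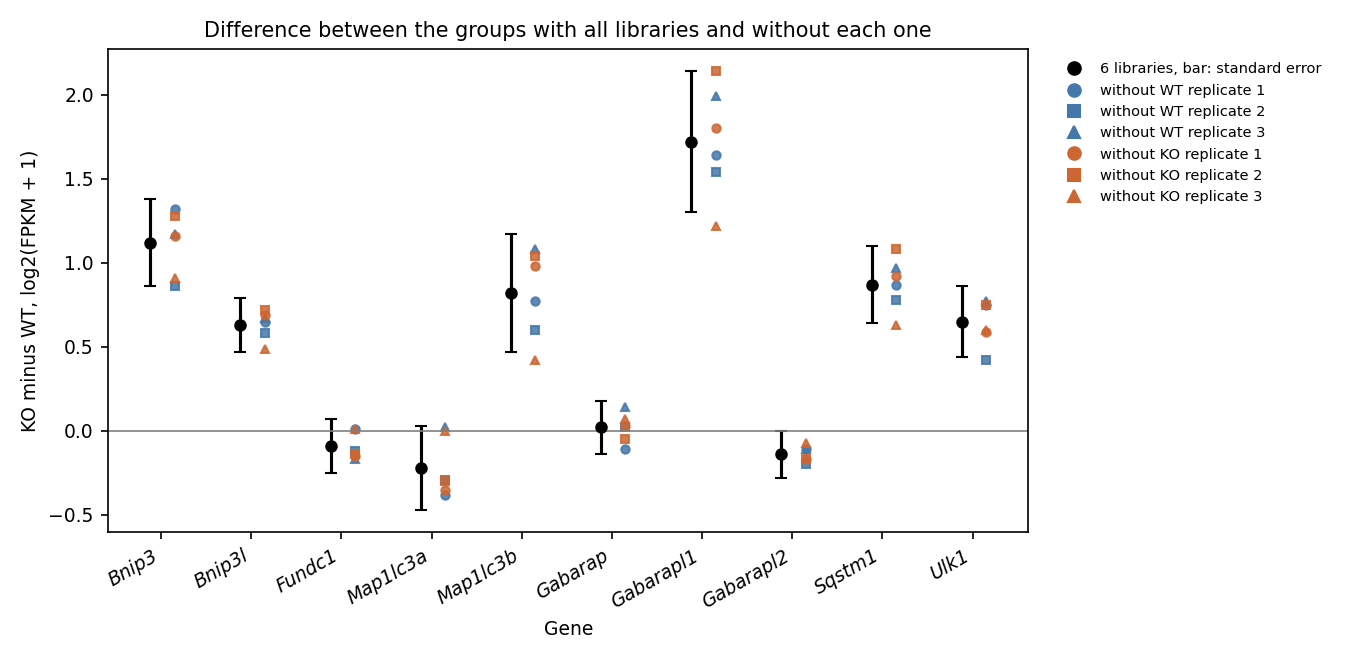
KO minus WT difference of each gene on the log2(FPKM + 1) scale, with all 6 libraries (black, bar: standard error) and without each library (coloured symbols). Without KO replicate 3 the differences of Gabarapl1 (1.22) and Map1lc3b (0.42) are the lowest of their 6 values.

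The 300 bases around the start site (250 before and 50 after, RefSeq, GRCm38.p6) are shown for the separated genes with a table entry, and for Gabarap as an ATG8 gene at a level near 230 FPKM in both groups. Of the 10 genes 8 matched an entry, all but Bnip3l and Map1lc3a. Each is written 5′ to 3′ on the strand of its gene, and capitals mark a match to a searched motif on either strand.
Bnip3, chr7:138909457-138909756, minus strand: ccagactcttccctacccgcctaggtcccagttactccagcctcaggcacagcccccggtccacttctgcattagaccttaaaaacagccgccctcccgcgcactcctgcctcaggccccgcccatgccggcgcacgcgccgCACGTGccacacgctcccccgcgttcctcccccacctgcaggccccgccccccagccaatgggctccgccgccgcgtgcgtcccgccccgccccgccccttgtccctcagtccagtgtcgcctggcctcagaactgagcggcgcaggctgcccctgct
Gabarapl1, chr6:129532942-129533241, plus strand: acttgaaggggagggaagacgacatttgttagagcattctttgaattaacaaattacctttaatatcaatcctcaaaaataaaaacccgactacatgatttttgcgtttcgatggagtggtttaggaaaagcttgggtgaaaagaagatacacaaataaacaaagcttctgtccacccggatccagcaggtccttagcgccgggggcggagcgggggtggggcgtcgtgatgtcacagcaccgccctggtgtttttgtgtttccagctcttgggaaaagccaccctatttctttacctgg
Sqstm1, chr11:50210771-50211070, minus strand: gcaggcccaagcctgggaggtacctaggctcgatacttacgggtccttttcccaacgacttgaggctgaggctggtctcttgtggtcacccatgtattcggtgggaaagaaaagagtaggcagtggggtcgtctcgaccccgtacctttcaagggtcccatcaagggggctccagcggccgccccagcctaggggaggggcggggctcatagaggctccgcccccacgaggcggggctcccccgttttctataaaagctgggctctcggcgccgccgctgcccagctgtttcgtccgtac
Ulk1, chr5:110810032-110810331, minus strand: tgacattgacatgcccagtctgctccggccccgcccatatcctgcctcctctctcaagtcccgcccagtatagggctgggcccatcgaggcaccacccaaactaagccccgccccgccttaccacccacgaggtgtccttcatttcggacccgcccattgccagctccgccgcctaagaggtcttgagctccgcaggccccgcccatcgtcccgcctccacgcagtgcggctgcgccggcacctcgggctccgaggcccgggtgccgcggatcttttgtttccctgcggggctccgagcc
Gabarap, chr11:69991120-69991419, plus strand: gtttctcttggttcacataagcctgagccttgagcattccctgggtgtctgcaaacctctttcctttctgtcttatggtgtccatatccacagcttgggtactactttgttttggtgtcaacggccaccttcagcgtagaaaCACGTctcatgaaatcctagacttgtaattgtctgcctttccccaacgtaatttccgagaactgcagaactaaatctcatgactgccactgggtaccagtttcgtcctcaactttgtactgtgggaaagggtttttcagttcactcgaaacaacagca

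A group of 4 motifs was searched on both strands in the 8 windows. The hypoxia-inducible factor core ACGTG was found in 3 of them (Bnip3, Gabarap and Gabarapl2) and in 19.6% of the 32851 windows of the table. The E-box CACGTG, core of the site bound by the lysosomal regulator TFEB, was found in Bnip3 alone, from 108 bases before the start, and in 7.15% of all windows. That palindrome contains the hypoxia core on both strands, so the Bnip3 matches are 1 stretch. The forkhead site GTAAACA was found in 0 of the 8 and in 3.65% of all windows, and the antioxidant element TGACNNNGC in Map1lc3b alone, 5 bases after the start, and in 12.4%. The hypoxia core was thus not limited to Bnip3 among the 8 windows. Control of these genes by hypoxia-inducible factors or by TFEB was not tested. The printed windows of Gabarapl1, Sqstm1 and Ulk1 held no exact match to the 4 motifs. Only these spellings were searched, so sites of the same factors that differ by a base were not looked for. A match is a run of letters and not a shown binding site. The windows also differed in base composition, with 27 CpG in Bnip3 and 26 in Ulk1 against 12 in Gabarapl1 and 7 in Gabarap, where the median window held 7.

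Other genes of the pathway, from lists by function that hold none of the 10, were tested in the same limma fit with p-values adjusted over all 13331 genes. Of 102 tested autophagy and mitophagy genes in 7 lists, 2 rose (Sesn1 and Atg14) and 0 fell, 1.96% against 1.21% of all genes called higher and 1.01% called lower. By direction alone 65 lay higher and 37 lower, with a median log2 difference of 0.09 against 0.01 for all genes. In 32 of them (31.4%) KO lay above WT without overlap, and in 10 (9.80%) below, against 13.6% and 11.4% of all genes. An unadjusted p under 0.05 was reached by 32, or 31.4% against 19.2%. The lists were chosen with earlier results of these data known, so these shares are a description.

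Sesn1, a sestrin that restrains the growth kinase mTORC1, rose from 9.73 ± 1.22 to 22.4 ± 6.63 FPKM (log2 difference 1.09, SE 0.21, limma adjusted p 0.0391). The WT libraries measured 10.5, 10.4 and 8.32 FPKM, against 18.6, 18.5 and 30.03 for KO, all 3 higher. Atg14, the subunit that directs the phosphoinositide kinase complex to autophagosomes, rose from 3.23 ± 0.679 to 6.86 ± 1.34 FPKM (0.89, SE 0.18, limma adjusted p 0.0446). Neither call held without any 1 of the 6 libraries, with limma adjusted p up to 0.14 for Sesn1 and 0.142 for Atg14 over 14 alternatives.

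The list of the initiation complex and its regulators had 9 of 15 genes higher, 1 of them called, and a median of 0.39, or 0.15 without KO replicate 3. An unadjusted p under 0.05 in limma was reached by 8 of the 15 (53.3%, against 19.2% of all genes), 7 with KO higher and 1 with KO lower. The phosphoinositide kinase complex and membrane supply had 13 of 18 higher, 1 called, and a median of 0.15, or 0.08 without KO replicate 3. In the other 5 lists limma called 0 genes. The ATG8 conjugation and processing list had 8 of 12 higher and a median of 0.02, with 4 genes at an unadjusted p under 0.05. Its smallest p belonged to Atg4d, an ATG8-cleaving protease, which was at 19.6 ± 5.14 FPKM in WT and 9.63 ± 2.03 FPKM in KO (limma adjusted p 0.0643). Atg7, the activating enzyme of the conjugation, was at 8.02 ± 0.663 and 13.4 ± 2.80 FPKM (0.0838), and Atg5, part of the conjugating complex, at 14.1 ± 1.56 and 10.3 ± 0.911 FPKM (0.171).

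The other mitophagy receptors and the PINK1-Parkin pathway, the ubiquitin-dependent route to mitophagy, had 11 of 20 genes higher, a median of 0.08, and 4 genes at an unadjusted p under 0.05. Tbk1, a kinase of cargo receptors, was at 19.2 ± 2.42 FPKM in WT and 28.4 ± 2.64 FPKM in KO (limma adjusted p 0.0969), and the Parkin gene, listed as Park2, at 2.99 ± 0.452 and 4.73 ± 0.943 FPKM (0.154). Nipsnap1, whose product recruits autophagy receptors to damaged mitochondria, was at 5.98 ± 1.57 and 3.67 ± 0.829 FPKM (0.178). The other cargo receptors had 9 of 13 higher, a median of 0.21 (0.13 without WT replicate 2) and 6 genes at an unadjusted p under 0.05. Among them Calcoco1 was at 26.5 ± 8.27 and 55.6 ± 17.3 FPKM (0.0878), the receptor optineurin (Optn) at 34.5 ± 2.11 and 57.9 ± 18.3 FPKM (0.125), and Ccpg1, a receptor for the endoplasmic reticulum, at 16.6 ± 2.63 and 23.5 ± 0.574 FPKM (0.130). The value in brackets after each gene is its limma adjusted p, and none of these 3 passed.

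Autophagosome fusion had 9 of 13 genes higher, a median of 0.15 and 1 gene at an unadjusted p under 0.05, Stx17, the syntaxin of the autophagosome, at 10.1 ± 1.76 FPKM in WT and 15.3 ± 0.468 FPKM in KO (limma adjusted p 0.0937). Next by p were Vps16, a tethering subunit, at 10.7 ± 0.433 and 13.5 ± 1.41 FPKM (0.288), and Snap29, a partner of Stx17, at 10.6 ± 0.270 and 13.0 ± 1.63 FPKM (0.355). The transcription factors of autophagy genes had 6 of 11 higher, a median of 0.02 and 4 genes at an unadjusted p under 0.05. Foxo4 was at 8.63 ± 0.435 and 13.6 ± 2.35 FPKM (limma adjusted p 0.0915), while Tfeb, a main activator of lysosomal genes, was at 10.1 ± 2.89 and 6.03 ± 0.316 FPKM (0.130) and Mitf, its relative, at 2.37 ± 0.395 and 1.37 ± 0.370 FPKM (0.155). The factors of the list thus did not lie on 1 side, and their median ran from −0.14 without KO replicate 2 to 0.13 without WT replicate 1.

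**Figure D4:**
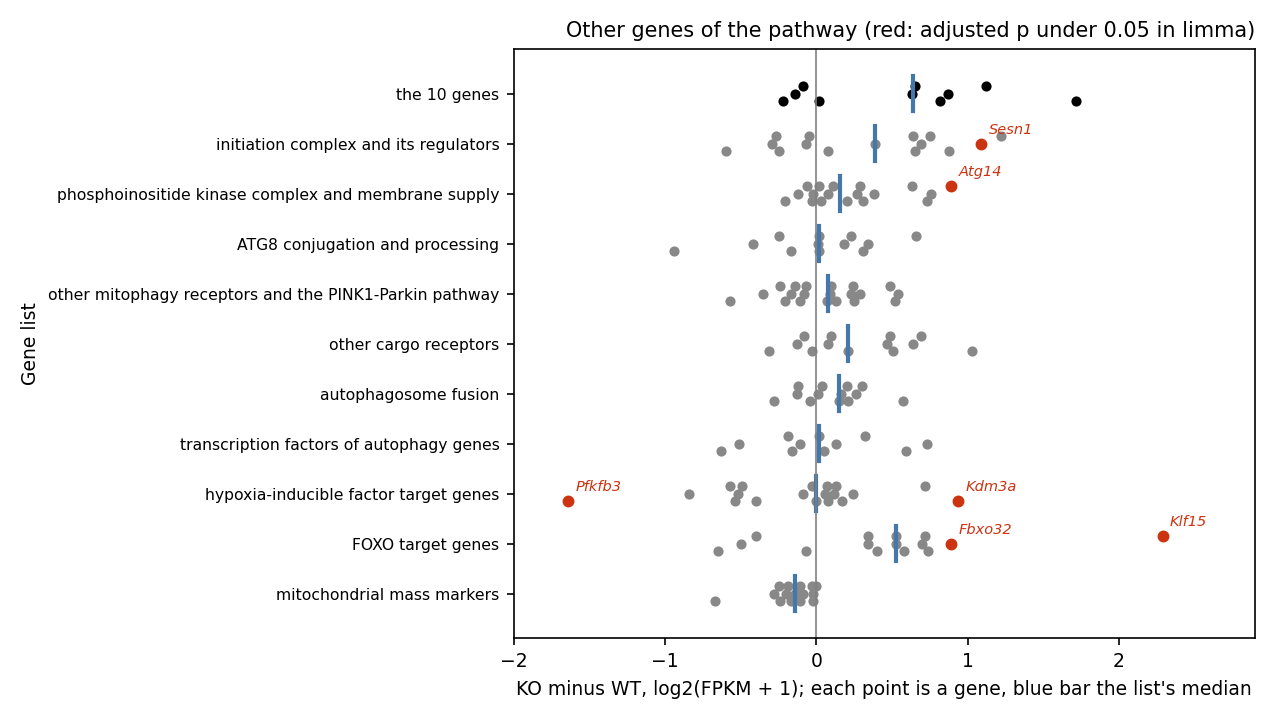
KO minus WT difference on the log2(FPKM + 1) scale for each tested gene of the pathway lists, with the 10 genes at the top in black, a blue bar at the median of each list, and red for genes with a limma adjusted p under 0.05. Sesn1, Atg14, Kdm3a, Fbxo32 and Klf15 are called to the right of 0 and Pfkfb3 to the left, and the median of the 10 genes is 0.64.

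Bnip3 is a classical target of hypoxia-inducible factors, and Bnip3, Gabarapl1, Map1lc3b and Ulk1 are known targets of FOXO factors in muscle, so lists of other targets of both were set beside them. Of 19 tested hypoxia-inducible factor targets 9 lay higher and 10 lower, with a median of 0.00. An unadjusted p under 0.05 was reached by 2 with KO higher and 7 with KO lower, and the groups did not overlap for 1 with KO higher and 6 with KO lower (31.6%, against 11.4% of all genes). Kdm3a, a histone demethylase, rose from 16.7 ± 2.17 to 33.4 ± 7.95 FPKM (log2 difference 0.94, limma adjusted p 0.0423), and Pfkfb3, a regulator of glycolysis, fell from 49.9 ± 12.2 to 15.2 ± 3.08 FPKM (−1.64, limma adjusted p 0.0150). The call of Kdm3a was lost without any 1 of the 6 libraries (limma adjusted p up to 0.139) and that of Pfkfb3 without WT replicate 3 (up to 0.0677).

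Of 15 tested FOXO targets 11 lay higher and 4 lower, with a median of 0.53, or 0.22 without KO replicate 3. Klf15, a transcription factor of amino acid catabolism, rose from 2.56, 4.71 and 2.57 FPKM in WT to 15.7, 11.2 and 40.6 FPKM in KO (log2 difference 2.29, SE 0.41, limma adjusted p 0.0337). Fbxo32, the atrophy ubiquitin ligase atrogin-1, rose from 1.09 ± 0.184 to 2.89 ± 0.598 FPKM (0.89, limma adjusted p 0.0386). The call of Klf15 was lost without any of the WT libraries or without KO replicate 1 (limma adjusted p up to 0.132), and that of Fbxo32 without any library except WT replicate 1 (up to 0.138). KO replicate 3 was the highest library for both genes, as it was for Bnip3, Bnip3l, Gabarapl1, Map1lc3b and Sqstm1. It was not the highest for Ulk1, at 24.5 FPKM against 24.8 in KO replicate 1, nor for the rest of the 10 genes. Control of the 10 genes by FOXO factors or by hypoxia-inducible factors was not tested.

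The 15 genes that mark mitochondrial mass all lay lower in KO by sign, from −0.67 to 0.00 on the log2 scale with a median of −0.14. Some differences were near 0, as for Hspd1 (0.00, SE 0.20), Sdha (−0.02, SE 0.14), Ndufs1 (−0.02, SE 0.14) and Cox4i1 (−0.03, SE 0.17). For 5 of the 15 (33.3%, against 11.4% of all genes) KO lay below WT without overlap. In limma 0 were called, and 1 had an unadjusted p under 0.05. That gene was Tomm40, the import channel of the outer membrane, at 77.6 ± 12.8 FPKM in WT and 48.1 ± 5.85 FPKM in KO (limma adjusted p 0.0775). The next by p were Timm23, at 398 ± 18.2 and 327 ± 23.0 FPKM (0.277), and Vdac2, at 363 ± 11.7 and 307 ± 14.0 FPKM (0.338). Their sign was not stable to single libraries: without WT replicate 1, 4 of the 15 lay higher and Tomm40 was called.

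The genes nearest in profile over the 6 libraries were found by the root mean square difference of log2(FPKM + 1), each gene centred on its own mean, among 8373 other genes whose mean reached 5 FPKM. For Bnip3 they were Sav1 (0.10), Gm20362 (0.17), Rnmt (0.18), Dhx40 (0.18) and Uap1 (0.19), where the median gene was at 0.70. For Bnip3l they were Csf2rb (0.06), Bag3 (0.07), Gab2 (0.07), Foxo4 (0.08) and Ell (0.08), with a median of 0.41, and for Gabarapl1 Serpina3n (0.23), Pbld1 (0.25), Pde4d (0.28), Tead1 (0.30) and Tmem140 (0.30), with a median of 1.09. Among the 10 genes themselves, Sqstm1 (rank 24, 0.26) and Ulk1 (rank 54, 0.30) were nearest to Bnip3, while Gabarapl1 ranked 1060 (0.54). Sqstm1 (rank 202, 0.18) and Ulk1 (rank 371, 0.21) were nearest to Bnip3l, for which Bnip3 ranked 2223 (0.34) and Gabarapl1 7970 (0.71). Map1lc3b (rank 45, 0.50), Sqstm1 (rank 56, 0.53) and Bnip3 (rank 57, 0.54) were nearest to Gabarapl1. The separated genes thus did not all share 1 profile. Map1lc3a ranked 7307 for Bnip3 and 7090 for Gabarapl1. A profile that shares the step between the groups is near by that step alone, so the ranks describe these 6 libraries.

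Markers of cell types were read beside the 10 genes. Brown adipocyte markers lay lower in 7 of 12, with a median of −0.15, and summed to 22323 to 28678 FPKM in WT and 22114 to 24130 FPKM in KO. Fabp4 alone made up most of each sum, at a mean of 15810 FPKM in WT and 15037 in KO. The groups did not overlap for 5 markers with KO lower (41.7%, against 11.4% of all genes) and 0 with KO higher. An unadjusted p under 0.05 in limma was reached by 5 with KO lower and 1 with KO higher. With each gene centred on its mean over the 6 libraries, the list averaged 0.17 to 0.36 in WT and −0.45 to −0.07 in KO (log2 scale). The 2 called lower in limma were Plin1, a lipid droplet coat, from 246 ± 68.1 to 93.2 ± 15.1 FPKM (adjusted p 0.0267), and Elovl3, a fatty acid elongase, from 22.7 ± 3.62 to 4.0 ± 2.06 FPKM (adjusted p 0.0151). Of these 12 markers limma called 0 without WT replicate 2 or without WT replicate 3. Macrophage markers lay higher in 12 of 12, with a median of 0.35 and 0 called (5 at an unadjusted p under 0.05 in limma), and summed to 145 to 214 FPKM in WT and 204 to 277 FPKM in KO. Skeletal muscle markers summed to 1501 to 2207 FPKM in WT and to 406, 1665 and 1996 FPKM in KO replicates 1, 2 and 3. KO replicate 1 was thus poor in muscle transcripts.

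Erythroid markers summed to 3386, 5074 and 14404 FPKM in WT and to 3077 to 3970 FPKM in KO, and WT replicate 3 was also the highest WT library for 7 of the 10 genes, all but Bnip3, Fundc1 and Gabarapl2. Without WT replicate 3 the log2 difference was 0.02 for Map1lc3a and 0.14 for Gabarap. Endothelial markers summed to 602 to 819 FPKM in WT and 626 to 713 in KO, and Schwann cell markers to 55.1 to 68.1 and 49.0 to 74.7 FPKM. Epidermis markers summed to at most 6.77 FPKM in any library, with 7 of the 10 listed at 0 in at least 1 library, Krt5 and Krt14 among them. The part of macrophage, muscle or red cell content in the levels of the 10 genes was not tested, and neither was that of brown adipocyte content.

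**Figure D5:**
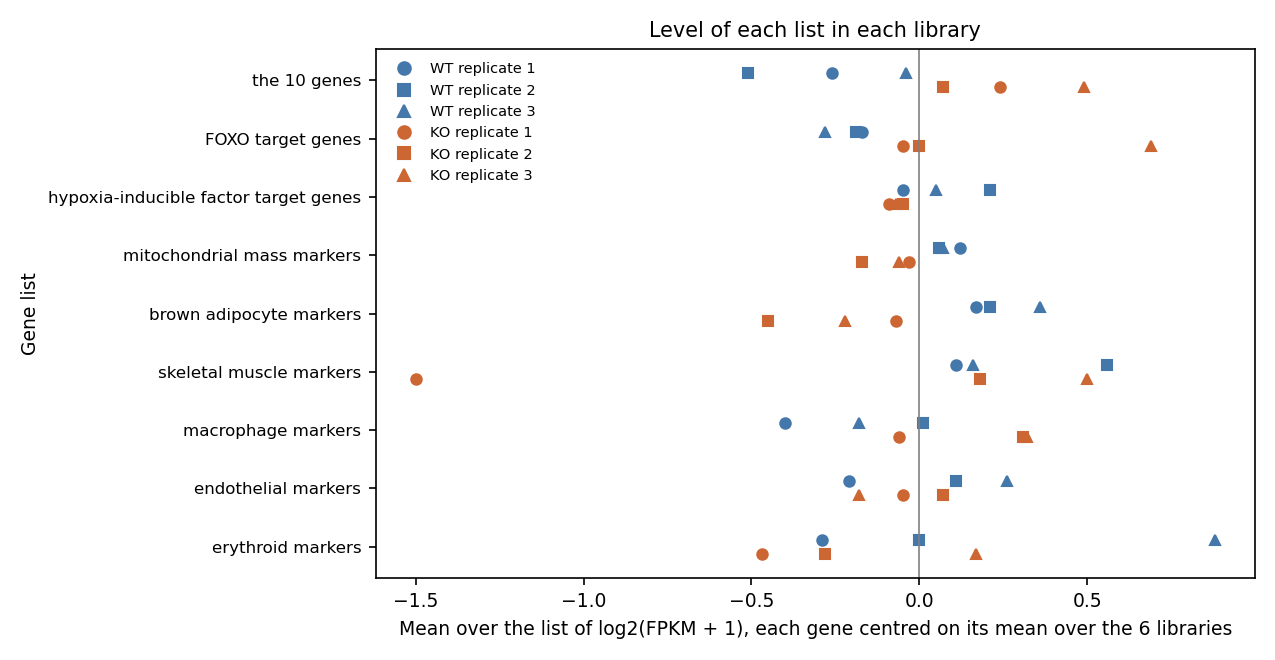
Level of the 10 genes and of 8 gene lists in each library, as the mean of log2(FPKM + 1) after centring each gene on its mean over the 6 libraries. The 10 genes run from −0.51 to −0.04 in WT and from 0.07 to 0.49 in KO, KO replicate 1 stands at −1.50 for skeletal muscle, WT replicate 3 at 0.88 for erythroid markers and KO replicate 3 at 0.69 for FOXO targets.

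Reads of near-identical sequences could be placed on the wrong gene. No stretch of 50 bases in the GENCODE vM21 transcripts of a gene occurred in those of another of the 10, so the paralogues could be told apart at that length. Pseudogenes and other transcripts held 24.4% of the 50-base stretches of Bnip3l, 20.7% of Bnip3, 17.0% of Gabarapl2 and 6.39% of Map1lc3b, and 0 of the other 6 genes. The levels of these 4 genes are therefore less certain than those of Gabarapl1, Sqstm1 and Ulk1.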

How the data were processed

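The deposited table holds FPKM values for 19241 genes in 6 libraries, made by the authors and, per the file headers, 1 column per library. The submitters' processing notes name HISAT2 2.0.4, Bowtie2 2.2.5, DESeq2 and the build mm10, with no role or order. Counting tool, strand handling and filters are not given in the sources used here. FPKM are not counts, so limma 3.58.1 (R 4.3.3) was fitted to log2(FPKM + 1), with an intensity trend and no covariates, for the 13331 genes whose mean reached 0.5 FPKM. P-values were two-sided and adjusted over all of them by the Benjamini-Hochberg method, with a threshold of 0.05. Differences on this scale understate the change of low genes. Reads were not recovered as whole numbers for the table: 74.9% to 80.1% of low values of short single-transcript genes lay within 0.2 of whole reads at the best depth (45.7% to 49.0% with lengths shuffled).

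The 10 genes and the lists were chosen with earlier results of these data known. From each pathway list the text names every called gene, or else the 3 with the smallest p. Entrez identifiers were matched to a RefSeq table of GRCm38.p6, which also gave 4 symbols that the table lists under older names. The ratios, shares and figures were computed in Python 3.11.15 with pandas 2.3.3 and matplotlib 3.10.9. Alternatives were another pseudocount, other filters, 3 scalings, no trend, the replicate number as a block, and leaving out each library.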

Additional observations from a re-analysis of the deposited data

How the results depend on the processing

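The 5 genes of the 10 without overlap were also without overlap under the 3 scalings. The other alternatives could not lower that count. The signs of Bnip3, Bnip3l, Map1lc3b, Gabarapl1, Gabarapl2, Sqstm1 and Ulk1 held in all 14 alternatives, those of Fundc1 and Map1lc3a in 12 each and that of Gabarap in 11. With only genes of at least 5 FPKM, limma called 321 genes, Bnip3 and Gabarapl1 among them. Because the 10 genes were chosen with this contrast in view, nothing is read from those 2 calls. No KO minus WT difference in ATG8 share moved by more than the SD between libraries of a group. That limit is wide, since KO replicate 3 is part of it: for Map1lc3b it was 6.84 percentage points. The Map1lc3b difference was 3.18 points without KO replicate 3, against 8.47 with all libraries.

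The number of genes called in limma was 295, and 35 without the filter on low values, 191 after rescaling to a common sum and 31 (without WT replicate 3) to 370 (without WT replicate 1) when 1 library was left out. For the pathway lists it was 6, and 0 without the filter (48 of 154 genes at an unadjusted p under 0.05), 9 with only genes of at least 5 FPKM, 3 after rescaling to a common sum, and 0 (without WT replicate 3, with 44 of 151 at an unadjusted p under 0.05) to 7 (without WT replicate 1). Of those 7, only 2 were among the 6. Leaving out a library makes a fit smaller by construction, and for the remaining shifts the cause was not tested.

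Replicate numbers are shared by both groups, but same-numbered libraries deviated from their group means with correlations of only 0.068, 0.043 and 0.043, so the numbers were not taken as pairs, although each library correlated best with its own number. With the replicate block limma called 167 genes, Gabarapl1 among them, and 2 pathway genes, Klf15 and Pfkfb3. Nothing is read from the call of Gabarapl1, since it was chosen with this contrast in view.

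With a pseudocount of 0.1 the log2 difference moved from 0.89 to 1.32 for Fbxo32 and from 2.29 to 2.58 for Klf15. Depth did not limit the 10 genes.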
